A study of Mus musculus with 12 samples.

Results

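The 40 genes described here are type I and type II interferon-stimulated genes together with genes of MHC class I antigen presentation, chosen by name from the 54839 features of a count table. All 40 were found in the table, and all 40 passed the filter on low counts. The table holds bulk RNA-seq of hepatocytes sorted by the tdTomato reporter (Tom- and Tom+) from livers of male p16-Tom mice, in 4 groups of 3 libraries: Tom- oil, Tom+ oil, Tom- CCl4 and Tom+ CCl4. All mice were heterozygous for p16-CreERT2 and for a Cre-dependent tdTomato cassette at R26, on a C57BL/6 background, and all received tamoxifen at 80 mg per kg, so that a cell became Tom+ if the p16Ink4a promoter drove Cre while tamoxifen was present. The oil groups received corn oil alone. The CCl4 groups received carbon tetrachloride, a solvent that hepatocytes convert to a toxic radical, at 1 mL per kg in corn oil every 3 days for 4 weeks. The age of the mice is not given in the sources used here. Any cell with p16Ink4a promoter activity can carry the reporter, the cells were not sorted by their position along the liver lobule, and position and reporter state cannot be told apart.

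Interferons bind receptors on the cell surface and activate Janus kinases. Type I interferon signals through a complex with STAT2 and IRF9 that binds the interferon-stimulated response element of its target genes, whereas type II interferon acts through the gamma-activated site. The targets include sensors and effectors of antiviral defence, GTPases that attack vacuoles of intracellular pathogens, and the immunoproteasome, the TAP transporter and the class I molecules that display peptides to CD8+ T cells. Hepatocytes express class I molecules and respond to both kinds of interferon.

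The promoters of several of these genes hold the response element, and 7 are shown. Stat2 and Oas1a carry calls below, B2m is the most abundant of the genes, and Isg15, Ifit1, Ifit3 and Ifit3b hold several copies. The window of Ifit2, the other IFIT gene, held 0 copies. RefSeq promoter windows (GRCm38.p6, 250 bases before to 50 bases after the start) were matched for 31 of the 40 genes. A single window per gene was searched, for exact matches to the core. A gene without a core there may hold an element elsewhere or at another start. The core of the interferon-stimulated response element, GAAANNGAAA or TTTCNNTTTC on the other strand, was present in 16 of these 31 windows (51.6%), against 3.44% of all 32851 windows. The core of the gamma-activated site, TTCNNNGAA, was present in 7 of 31 (22.6%), against 8.30% of all windows. Each stretch is written in the direction of transcription, 5′ to 3′, and the capitals mark the response element cores, which overlap in Isg15 and Oas1a.
Stat2 (chr10:128270261-128270300, + strand): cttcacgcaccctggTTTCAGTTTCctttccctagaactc
Oas1a (chr5:120907526-120907560, - strand): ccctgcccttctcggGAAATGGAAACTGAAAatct
Isg15 (chr4:156200860-156200911, - strand): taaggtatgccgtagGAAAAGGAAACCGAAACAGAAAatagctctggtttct
Ifit1 (chr19:34640770-34640828, + strand): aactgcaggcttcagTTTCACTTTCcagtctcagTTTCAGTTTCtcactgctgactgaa
Ifit3 (chr19:34583358-34583431, + strand): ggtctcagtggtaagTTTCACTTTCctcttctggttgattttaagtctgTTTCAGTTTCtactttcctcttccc
Ifit3b (chr19:34607754-34607827, + strand): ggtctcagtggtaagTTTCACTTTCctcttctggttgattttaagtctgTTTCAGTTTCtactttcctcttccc
B2m (chr2:122147533-122147572, + strand): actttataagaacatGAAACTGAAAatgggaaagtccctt
Isg15 carried 3 cores, between 66 and 78 bases before its start, and the nearest core of Oas1a lay 14 bases before its start. The stretches of Ifit3 and Ifit3b were identical over all 74 bases, with 34 bases from the first base of the first core to that of the second. In Stat2 the core lay 222 bases before the start, in the 344 bases that separate Stat2 from the upstream gene Apof. No core of either kind was found in the windows of Psmb9, Tap1, H2-K1 and H2-D1, which does not show that these genes lack such elements outside the window. The RefSeq starts of Psmb9 and Tap1, which are transcribed away from each other, lay 225 bases apart.

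Total counts ranged from 37568584 to 75331424 per library. The tdTomato reporter went against the label of 2 oil libraries. In CPM, counts scaled to library size, it measured 1794 in the library labelled Tom- oil 1 and 135 in the library labelled Tom+ oil 2, whereas the other 5 Tom+ libraries had 1225 to 1546 CPM and the other 5 Tom- libraries had 120 to 263 CPM. The labels were kept. Calls, medians and lists are also given without these 2 libraries, while levels and counts of groups that do not overlap are given with all 12. The hepatocyte marker Alb measured 73423 CPM or more in every library. Markers of endothelial cells and macrophages were detected in all libraries, while the lymphocyte genes Cd3e, Cd8a and Nkg7 stayed at or below 0.127 CPM.

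Levels of the 40 genes are given in CPM after TMM normalization, and between genes they were compared only per kilobase of gene length. On that scale the class I genes were the most abundant: B2m, the invariant light chain of class I molecules, had a mean of 1594 CPM per kb over the 12 libraries, and the heavy chains H2-K1 and H2-D1 had 628 and 270 CPM per kb. Bst2, which tethers budding virus particles to the cell surface, and the GTPase Iigp1 followed with 257 and 132 CPM per kb. At the other end Oas2 had 0.174 CPM per kb. The range within a gene also differed. B2m varied least, its highest library being 1.49 times its lowest, and among genes with no library at 0, the GTPase gene Gbp2 varied most, at 10.3 times.

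**Figure D1:**
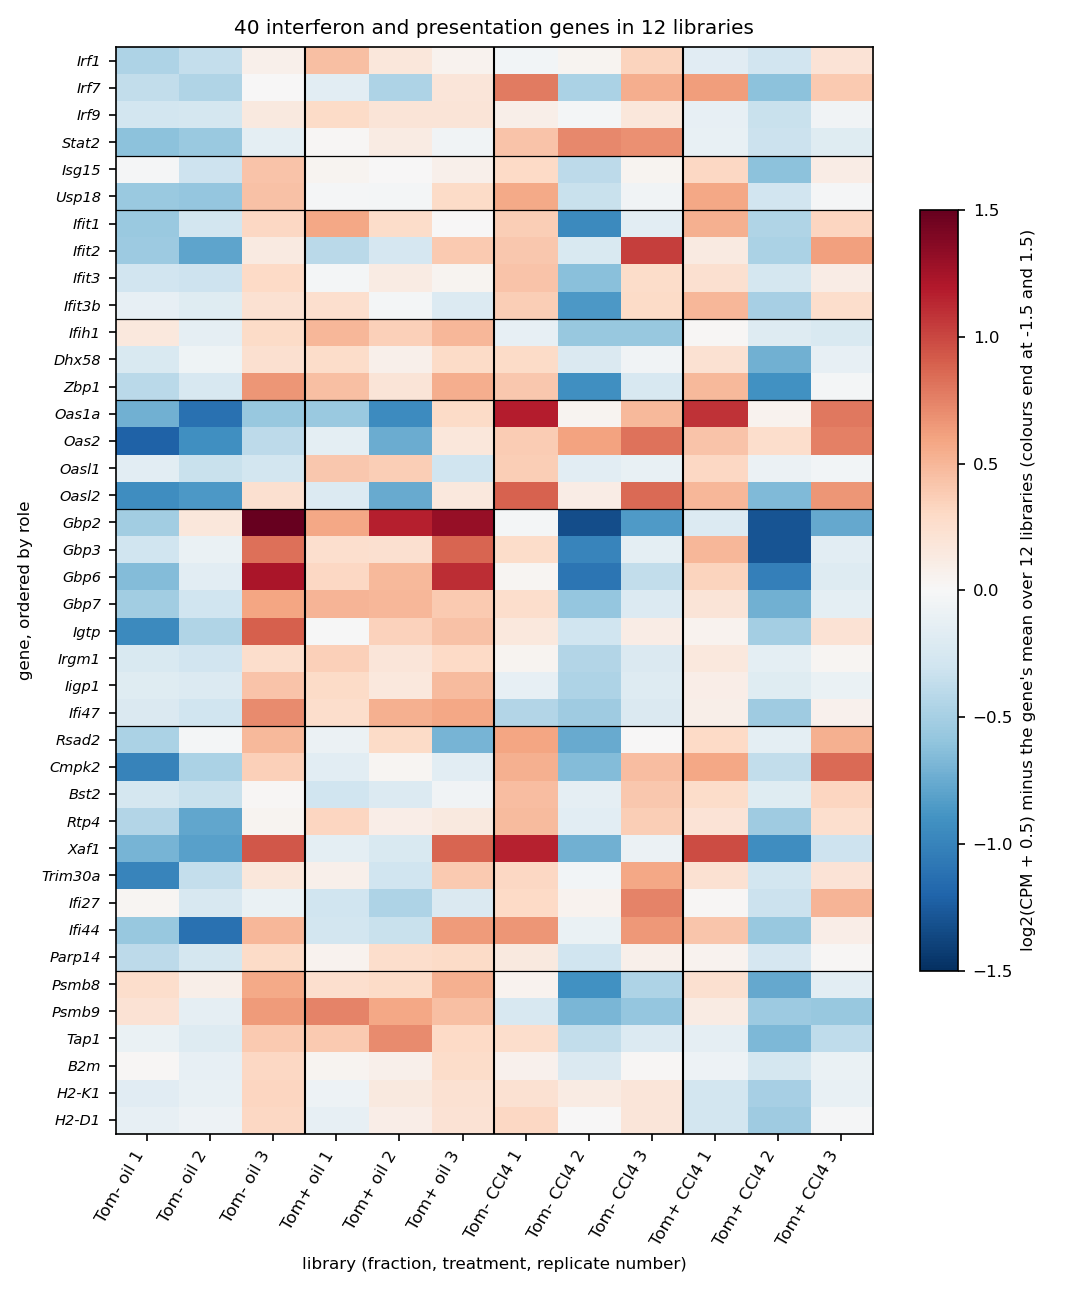
Each row is 1 of the 40 genes, ordered by role, and each column is 1 of the 12 libraries; the colour is log2(CPM + 0.5) minus the mean of the gene over all libraries. Most rows are blue in Tom+ CCl4 2 and many in Tom- CCl4 2, Stat2 is red in the 3 Tom- CCl4 libraries, and Gbp2 is darkest red in Tom- oil 3 and darkest blue in Tom- CCl4 2 and Tom+ CCl4 2.

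A gene was called changed if its adjusted p in edgeR's quasi-likelihood test (Benjamini-Hochberg, over all genes tested) was under 0.05 and its log2 fold change was beyond 0.75 in either direction. The first comparison asked what CCl4 did to these genes in Tom- hepatocytes. In this fraction 3 of the 40 genes were higher in CCl4 than in oil and 1 was lower, against 6.33% and 1.59% of all 17121 genes tested. The genes that rose were Stat2, Oas1a and Oas2, and the gene that fell was Psmb9. The median log2 fold change of the 40 genes was 0.10, against 0.00 over all genes, and 23 were positive and 17 negative. This median rested on single libraries: it was 0.01 without Tom- oil 1, -0.00378 without Tom- oil 2, 0.31 without Tom- oil 3, -0.09 without Tom- CCl4 1 and 0.26 without Tom- CCl4 2. Without both doubted oil libraries it was 0.02, with 21 positive. In bulk RNA, fewer cells of a type and less RNA per cell cannot be told apart. The groups did not overlap for a few: 5 of the 40 were higher in all 3 CCl4 libraries than in any oil library (12.5%, against 19.3% of all genes).

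Stat2 encodes a subunit of the complex through which type I interferon signals. It measured 49.3, 51.5 and 68.3 CPM in Tom- oil, and 102.5, 125.7 and 122.3 CPM in Tom- CCl4. Tom+ oil had 77.1, 82.7 and 72.8 CPM, and Tom+ CCl4 had 70.4, 60.4 and 66.8 CPM. All 3 Tom- CCl4 libraries therefore stood above the other 9, and the remaining groups lay within a range of 49.3 to 82.7 CPM. In order of the mean, the levels were 56.4 ± 10.4 in Tom- oil, 65.9 ± 5.08 in Tom+ CCl4, 77.5 ± 4.95 in Tom+ oil and 116.8 ± 12.5 CPM in Tom- CCl4 (SD, n = 3 each), and only Tom- oil and Tom+ CCl4 overlapped among neighbours in this order.

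The level of Stat2 in Tom- cells was 2.07 times higher in CCl4 than in oil (log2 fold change 1.05 ± 0.12 SE, edgeR adjusted p = 0.000234). In Tom+ cells the log2 fold change was -0.23 ± 0.12 (edgeR adjusted p = 0.261). Within CCl4, Stat2 was lower in Tom+ than in Tom- cells, by a log2 fold change of -0.83 ± 0.12 (edgeR adjusted p = 0.00510). Within oil the log2 fold change was 0.46 ± 0.12, with Tom+ above Tom- in each same-numbered pair and an edgeR adjusted p of 0.480. The difference between these Tom+ against Tom- changes was itself tested and was -1.29 ± 0.17 on the log2 scale (edgeR adjusted p = 0.00738). These calls of Stat2 were made under every alternative run. The adjusted p ranged from 3.14e-12 to 0.00288 for CCl4 against oil in Tom- cells, from 3.81e-07 to 0.0382 for Tom+ against Tom- in CCl4, and from 3.93e-08 to 0.0317 for the difference. Without the 2 oil libraries at odds with their reporter, the difference was -1.15 (edgeR adjusted p = 0.0248).

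Values that moved with Stat2 were found in its neighbourhood and in another cell type. Stat2 lies on the + strand of chromosome 10 at 128270559 to 128292849 in the deposited coordinates, and no other feature of the table overlaps it. Apof, an apolipoprotein gene just upstream, had a log2 fold change of 0.10 for CCl4 against oil in Tom- cells (edgeR adjusted p = 0.534) and -0.36 for Tom+ against Tom- in CCl4 (0.0508). Apon, further upstream, had 0.19 (0.325) and -0.60 (0.0178), and Cs, further downstream, had 0.19 (0.266) and 0.56 (0.0148), the latter in the other direction. The downstream gene Pan2, which encodes a deadenylase subunit, went the same way as Stat2 at smaller sizes: its log2 fold change was 0.53 for CCl4 against oil in Tom- cells (edgeR adjusted p = 0.0128) and -0.55 for Tom+ against Tom- in CCl4 (edgeR adjusted p = 0.0240). The summed level of 6 liver endothelial markers was 253 to 264 CPM in Tom- CCl4, against 101 to 150 CPM in Tom- oil, 112 to 185 CPM in Tom+ oil and 126 to 177 CPM in Tom+ CCl4. None of the 6 was at 0 in any library. For CCl4 against oil in Tom- cells edgeR called all 6 higher, against 6.33% of all genes. For Tom+ against Tom- in CCl4 it called 4 of the 6 lower, against 1.74%. For the difference it called 1 lower, Ptprb, against 0.958%. The part of either in the Stat2 result was not tested.

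**Figure D2:**
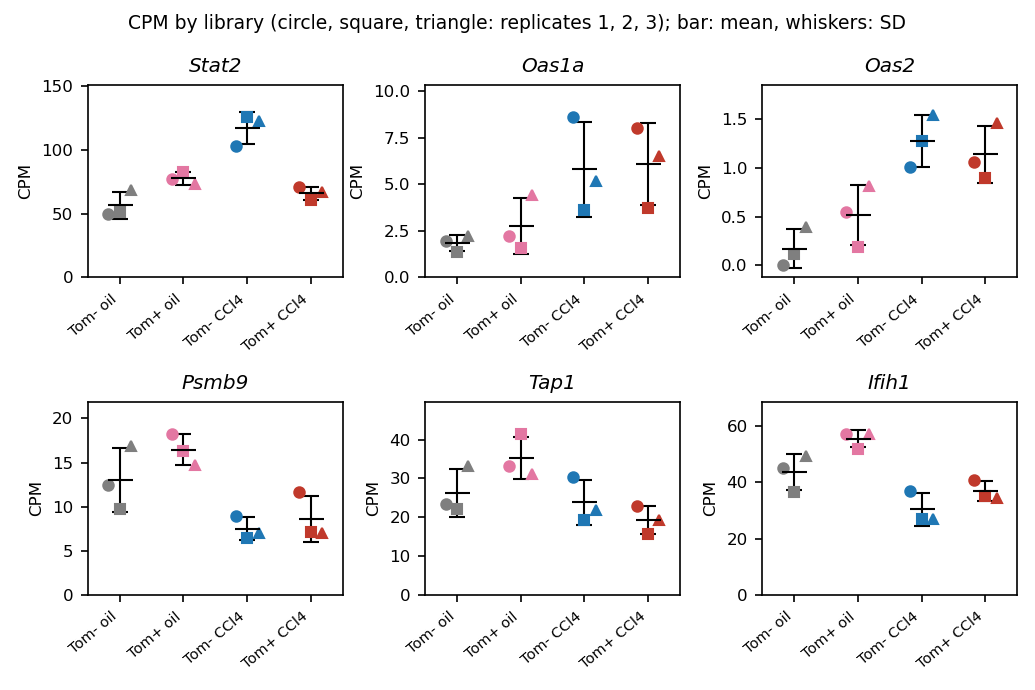
CPM of 6 genes in each library, by group; circles, squares and triangles are replicates 1, 2 and 3, bars are means and whiskers are SDs (n = 3). Stat2 is highest in Tom- CCl4, at 102.5 to 125.7 CPM, Oas1a and Oas2 are higher in CCl4, and Psmb9 lies lower in CCl4 than in oil in each fraction.

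The other transcription factors did not pass the test in Tom- cells. Irf9, the DNA-binding partner of STAT2, measured 28.4, 28.6 and 38.2 CPM in Tom- oil and 36.6, 33.9 and 38.9 CPM in Tom- CCl4. Its levels in Tom+ cells were 42.3, 39.5 and 39.5 CPM in oil and 31.7, 27.2 and 33.4 CPM in CCl4. These Tom+ groups did not overlap, and the log2 fold change was -0.39 ± 0.12 (edgeR adjusted p = 0.0522), or -0.40 (0.108) without the doubted oil libraries. Irf9 overlaps Rnf31 on the same strand, with mean counts of 1747 for Irf9 and 689 for Rnf31, and reads of the overlap cannot be told apart. Irf7, which amplifies the type I response, had log2 fold changes of 0.64 in Tom- and 0.36 in Tom+ cells (edgeR adjusted p = 0.281 and 0.626), and Irf1, a target of type II interferon, had 0.36 and -0.31 (0.175 and 0.288).

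The oligoadenylate synthetases activate RNase L when they meet double-stranded RNA. All 4 genes listed with this family, which include the synthetase-like Oasl1 and Oasl2, had positive log2 fold changes in Tom- cells (median 1.43). Oas1a measured 1.95, 1.36 and 2.23 CPM in Tom- oil and 8.65, 3.65 and 5.17 CPM in Tom- CCl4. The groups did not overlap, and the log2 fold change was 1.66 ± 0.43 (edgeR adjusted p = 0.0224). In Tom+ cells Oas1a was at 2.25, 1.60 and 4.46 CPM in oil and 8.05, 3.71 and 6.51 CPM in CCl4, with Tom+ oil 3 above the lowest CCl4 library, and the log2 fold change was 1.15 ± 0.41 (edgeR adjusted p = 0.108). The call in Tom- cells was lost without Tom- oil 1 (edgeR adjusted p = 0.0704), without Tom- oil 2 (0.0826), without Tom- CCl4 1 (0.0684) and without Tom- CCl4 3 (0.0510), while the log2 fold change stayed between 1.26 and 1.74 in these fits. Without both oil libraries at odds with their reporter it was 1.71 (edgeR adjusted p = 0.0595). Levels of other cell types' markers moved with treatment too. The summed level of 6 stellate cell and fibroblast markers was 6.55 to 20.4 CPM in oil and 45.7 to 91.5 CPM in CCl4, with none at 0 in any library. In Tom- cells 5 of 6 were called higher and in Tom+ cells 4 of 6, against 6.33% and 2.90% of all genes. The summed level of 7 macrophage markers was 15.2 to 76.8 CPM in Tom- oil and 99.4 to 129 CPM in Tom- CCl4. In Tom- cells edgeR called 0 of these 7 markers without a block, where 6.33% of all genes were called higher. With a block for the replicate number it called all 7 higher, against 1366 of all 17121 genes. That number is only a label between oil and CCl4, without a stated pairing. The part of these cell types in the results of the synthetases was not tested.

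Oas2 had low counts, and it was close to the limit of detection in Tom- oil 1 and Tom- oil 2. It had 0, 6 and 19 counts in Tom- oil and 40, 46 and 73 counts in Tom- CCl4, or at most 0.388 CPM in oil and at least 1.01 CPM in CCl4. Tom+ oil had 38, 10 and 33 counts, and Tom+ CCl4 had 86, 41 and 70. All 6 CCl4 libraries had a higher CPM than all 6 oil libraries, and Oas2 was the single gene of the 40 with that property (2.5%, against 4.16% of all genes). The log2 fold change in Tom- cells was 2.85 ± 0.73 (edgeR adjusted p = 0.0188), a size that depends on the low oil counts, and 1.15 ± 0.65 in Tom+ cells (edgeR adjusted p = 0.306). The call in Tom- cells was lost without Tom- oil 2 (edgeR adjusted p = 0.0714) and without Tom- CCl4 3 (0.0570), and it was made without the 2 doubted oil libraries (log2 fold change 2.34, edgeR adjusted p = 0.0194). For the relatives Oasl1, which represses translation of Irf7, and Oasl2, the log2 fold changes in Tom- cells were 0.32 and 1.19 (edgeR adjusted p = 0.283 and 0.106).

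The interferon-inducible GTPases, which include guanylate-binding proteins and immunity-related GTPases, had a median log2 fold change for CCl4 against oil of -0.37 in Tom- and -0.61 in Tom+ cells. All 8 were negative in both fractions, and none was called by edgeR, while Gbp2 was called lower in Tom+ cells by DESeq2, by edgeR on the 6 Tom+ libraries alone and without Tom- oil 3. In Tom- cells the signs rested on Tom- oil 3 and Tom- CCl4 2. Without Tom- oil 3 the median was -0.02 and Gbp7, Igtp and Irgm1 were positive, and without Tom- CCl4 2 it was -0.19 and Gbp7 and Igtp were positive. Igtp was also positive with limma-voom and in the fit blocked by replicate. In Tom+ cells the median was -0.36 without Tom+ CCl4 2, with all 8 negative. Without both doubted oil libraries the medians were -0.53 and -0.59. Gbp2 had the lowest values of the 40 genes, -1.55 ± 0.64 and -1.85 ± 0.63 (edgeR adjusted p = 0.133 and 0.109). Its levels were 4.25, 7.17 and 22.7 CPM in Tom- oil, 9.66, 14.7 and 16.4 CPM in Tom+ oil, 6.19, 2.21 and 3.30 CPM in Tom- CCl4 and 5.42, 2.27 and 3.51 CPM in Tom+ CCl4. The Tom- oil libraries spread over more than the difference between treatments, whereas the Tom+ groups did not overlap. Iigp1, the most abundant of them, had log2 fold changes of -0.30 and -0.37 (edgeR adjusted p = 0.216 and 0.173). Counts of Gbp6, Gbp7 and Igtp were not whole numbers in at least 10 of the 12 libraries, and Igtp overlaps Irgm2 on the same strand, so that their values include shared reads.

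Among the sensors of foreign nucleic acid, Ifih1, which encodes the double-stranded RNA sensor MDA5, was lower in CCl4 in both fractions at sizes under the threshold. It measured 45.1, 36.7 and 49.3 CPM in Tom- oil and 37.1, 27.0 and 27.0 CPM in Tom- CCl4, where Tom- oil 2 lay just below Tom- CCl4 1. In Tom+ cells the levels were 57.3, 52.1 and 57.2 CPM in oil and 41.1, 35.3 and 34.4 CPM in CCl4, with no overlap. The log2 fold changes were -0.53 ± 0.14 in Tom- and -0.59 ± 0.14 in Tom+ cells (edgeR adjusted p = 0.0197 and 0.0155), and without the doubted oil libraries they were -0.50 and -0.63 (0.0818 and 0.0486). Dhx58, a regulator of that sensor, and Zbp1, a sensor of Z-form nucleic acid, had log2 fold changes between -0.46 and 0.03, with no adjusted p under 0.05.

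In the edgeR fit of 12 libraries without a block, the ISG15 system, the IFIT family and the remaining interferon-stimulated genes held no call in either fraction. With a block for the replicate number, Ifit2 (log2 fold change 0.94, edgeR adjusted p = 0.00513) and Ifi44 (0.84, 0.0406) were called higher in Tom- cells. Between oil and CCl4 the same number is only a label, without a stated pairing. Isg15, a ubiquitin-like modifier, had log2 fold changes of -0.06 and -0.05, and Usp18, which removes it from proteins and restrains the receptor, had 0.26 and 0.06. The IFIT proteins bind viral RNA ends, and their log2 fold changes in Tom- cells ran from -0.02 for Ifit1 to 0.97 for Ifit2 (edgeR adjusted p = 0.978 and 0.139). Ifit3 and Ifit3b, whose upstream stretches were identical, had 0.18 and 0.06 in Tom- cells, although reads shared between such close relatives cannot be assigned with certainty. Of the 9 other interferon-stimulated genes, 8 were positive in Tom- cells (median 0.49), among them Bst2 at 0.46 ± 0.17 (edgeR adjusted p = 0.0779) and Ifi27 at 0.50 ± 0.20 (0.119).

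In the Tom+ fraction, 0 of the 40 genes were higher in CCl4 than in oil and 2 were lower, Psmb9 and Tap1, against 2.90% and 2.34% of all genes tested. At an unadjusted p under 0.05, 1 of the 40 was higher and 10 were lower, against 4169 of all 17121 genes tested in either direction. DESeq2 and limma-voom each called 1 higher, Oas1a, and they called 3 and 2 lower. Over all genes DESeq2 called 649 higher and 493 lower, and limma-voom called 513 and 410. The median log2 fold change was -0.25, against 0.00 over all genes, and 29 of the 40 were negative. Without Tom+ CCl4 2 the median was -0.14, with 22 negative. The groups did not overlap for 13 genes that were lower in CCl4 (32.5%, against 14.6% of all genes), which included 5 of the 6 class I presentation genes, Irf9, Stat2, Ifih1 and 5 GTPase genes. Without the 2 doubted oil libraries the median was -0.25 and 28 of the 40 were negative, with 0 lower calls.

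Psmb9 encodes a catalytic subunit of the immunoproteasome. It fell in both fractions: it measured 12.4, 9.71 and 16.9 CPM in Tom- oil, 8.95, 6.47 and 6.99 CPM in Tom- CCl4, 18.2, 16.3 and 14.7 CPM in Tom+ oil, and 11.6, 7.14 and 7.06 CPM in Tom+ CCl4. CCl4 lay below oil with no overlap in each fraction. The log2 fold changes were -0.80 ± 0.23 in Tom- and -0.93 ± 0.23 in Tom+ cells (edgeR adjusted p = 0.0316 and 0.0220). Psmb8, another catalytic subunit, had -0.72 ± 0.28 and -0.54 ± 0.27 (edgeR adjusted p = 0.0981 and 0.255). The Psmb9 call in Tom- cells was lost without Tom- oil 1 (edgeR adjusted p = 0.0737), Tom- oil 3 (0.108), Tom- CCl4 2 (0.115) or Tom- CCl4 3 (0.103). In Tom+ cells it was lost without Tom+ oil 1 (edgeR adjusted p = 0.0845), Tom+ oil 2 (0.0601), Tom+ CCl4 2 (0.0865) or Tom+ CCl4 3 (0.1002). Without both doubted oil libraries the log2 fold changes were -0.83 and -0.93, neither past the threshold (edgeR adjusted p = 0.0959 and 0.0876).

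Tap1 encodes a subunit of the transporter that carries peptides into the endoplasmic reticulum. It measured 33.2, 41.5 and 31.0 CPM in Tom+ oil and 22.8, 15.6 and 19.2 CPM in Tom+ CCl4, again with no overlap, and its log2 fold change was -0.87 ± 0.20 (edgeR adjusted p = 0.0199). In Tom- cells it measured 23.5, 22.01 and 33.3 CPM in oil and 30.3, 19.3 and 21.8 CPM in CCl4, which overlapped, with a log2 fold change of -0.14 ± 0.20. The difference between the fractions was not past the threshold (-0.73 ± 0.29, edgeR adjusted p = 0.204, and 0.0505 in the fit blocked by replicate). The call in Tom+ cells was lost without Tom+ oil 1 (edgeR adjusted p = 0.0529), Tom+ oil 2 (0.0777), Tom+ CCl4 2 (0.0753) or Tom+ CCl4 3 (0.0794), and without both doubted oil libraries (-0.73, 0.104). Tap1 and Psmb9 overlap on opposite strands, and the strand setting of the counting is not given in the sources used here, so that reads of the overlap cannot be told apart.

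The class I molecules themselves were not called. H2-K1 measured 1531, 1794 and 1897 CPM in Tom+ oil and 1341, 1148 and 1492 CPM in Tom+ CCl4, which did not overlap (log2 fold change -0.39 ± 0.14, edgeR adjusted p = 0.0994, and -0.36 with 0.222 without the doubted oil libraries). In Tom- cells it measured 1435, 1497 and 2019 CPM in oil and 1893, 1768 and 1839 CPM in CCl4, where Tom- oil 3 was the highest of all 12 libraries. H2-D1 measured 634, 652 and 851 CPM in Tom- oil, 633, 736 and 801 CPM in Tom+ oil, 855, 692 and 781 CPM in Tom- CCl4 and 567, 477 and 682 CPM in Tom+ CCl4. Its Tom+ CCl4 libraries therefore lay below all Tom- CCl4 libraries but overlapped with Tom+ oil. B2m measured 1381, 1246 and 1683 CPM in Tom- oil, 1403, 1432 and 1643 CPM in Tom+ oil, 1421, 1170 and 1374 CPM in Tom- CCl4 and 1292, 1130.2 and 1272 CPM in Tom+ CCl4. The means of B2m spanned 1231 ± 88.1 to 1493 ± 131 CPM (SD, n = 3), and none of its comparisons passed the test. Counts of H2-K1 and H2-D1 were not whole in 9 and 11 libraries, and these close relatives share reads.

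**Figure D3:**
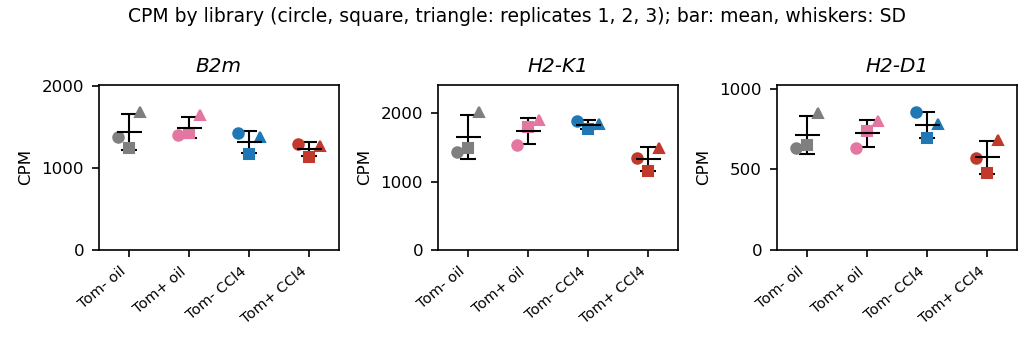
CPM of the 3 genes with the highest level per kilobase, by group; circles, squares and triangles are replicates 1, 2 and 3, bars are means and whiskers are SDs (n = 3). For H2-K1 and H2-D1 the 3 Tom+ CCl4 libraries lie below the 3 Tom- CCl4 libraries, and the groups of B2m overlap there.

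With both fractions of a treatment and number summed, 3 against 3, Oas2 was higher in CCl4 and Psmb9 was lower, which makes 1 gene each way, against 3.34% and 1.44% of 17743 genes tested. The log2 fold changes were 1.73 ± 0.44 and -0.88 ± 0.19 (edgeR adjusted p = 0.0464 and 0.0296). Stat2 (0.36), Tap1 (-0.58) and Ifih1 (-0.56) had an edgeR adjusted p under 0.05 at sizes under the threshold. These values reuse the libraries of the separate fractions. The Oas2 call was lost without number 1 or 2 of oil (edgeR adjusted p = 0.148 and 0.0835) and without number 1, 2 or 3 of CCl4 (0.0663, 0.101 and 0.114). The Psmb9 call was lost without number 1, 2 or 3 of oil (0.109, 0.0518 and 0.0546) and without number 2 or 3 of CCl4 (0.0913 and 0.0823). Without the 2 doubted oil libraries neither was called (edgeR adjusted p = 0.131 and 0.129).

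**Figure D4:**
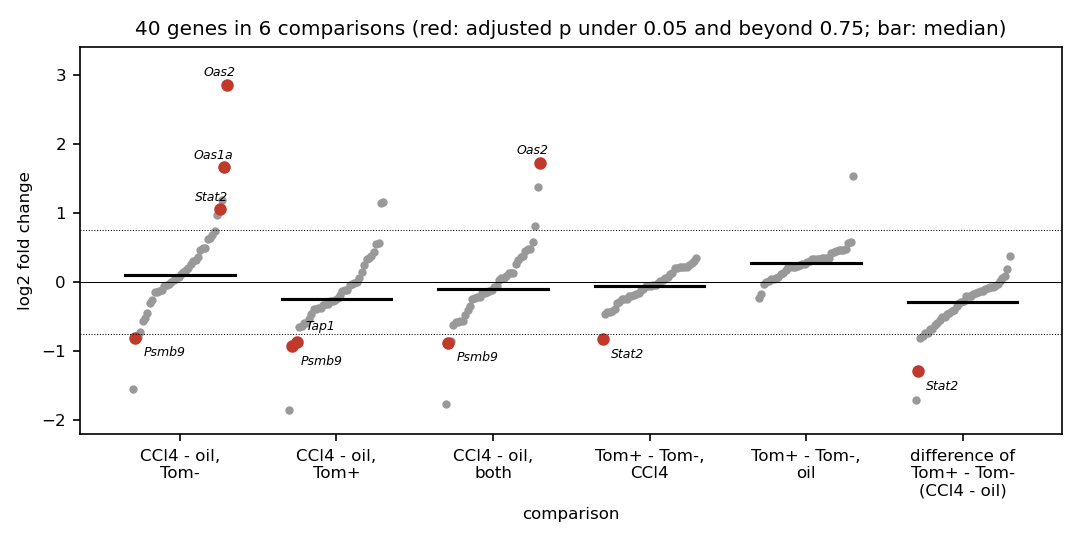
Log2 fold change of each of the 40 genes in the 6 comparisons, sorted within a comparison; red points are called genes, dotted lines mark 0.75 in either direction and black bars are medians. The medians run from -0.28 for the difference to 0.28 for Tom+ against Tom- in oil. Stat2 is the single called gene for Tom+ against Tom- in CCl4 and for the difference.

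The comparison of Tom+ with Tom- cells asked whether hepatocytes with p16 promoter activity differ in these genes. In CCl4, 0 of the 40 were higher in Tom+ cells and 1, Stat2, was lower, against 0.222% and 1.74% of all genes tested. At an unadjusted p under 0.05, 0 of the 40 were higher and 3 lower, against 3901 of all 17121 genes tested in either direction. DESeq2 and limma-voom each called 0 higher and 1 lower. Over all genes DESeq2 called 62 higher and 484 lower, and limma-voom called 44 and 358. The median log2 fold change was -0.05, and its sign rested on single libraries: it was 0.16 without Tom- CCl4 1, -0.21 without Tom- CCl4 2, -0.03 without Tom- CCl4 3, -0.21 without Tom+ CCl4 1, 0.14 without Tom+ CCl4 2 and -0.08 without Tom+ CCl4 3. Stat2, Irf9, H2-K1 and H2-D1 were lower in all 3 Tom+ than in all 3 Tom- libraries (10% of the 40, against 14.6% of all genes).

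Same-numbered libraries of a treatment deviated together, so a fit with a block for the number was set beside this comparison. With the block, H2-K1 had a log2 fold change of -0.47 ± 0.08 (edgeR adjusted p = 0.00167, against 0.0652 without it). H2-D1 had -0.44 ± 0.08 with the block (edgeR adjusted p = 0.00305, against 0.107 without it). Ifi27, a mitochondrial protein, was lower at -0.29 (0.00890 with the block), and Ifih1 was higher at 0.29 (0.0234 with the block). All 4 lay under the size threshold, and the calls of the 40 genes in this comparison were not altered by the block. H2-K1 and H2-D1 were lower in Tom+ than in Tom- cells in 3 of 3 CCl4 pairs.

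In oil, 0 of the 40 genes were called in either direction, and 0% of all genes tested were called higher and 0% lower. At an unadjusted p under 0.05, 7 of the 40 were higher in Tom+ cells and 0 lower, against 1198 of all 17121 genes tested in either direction. DESeq2 and limma-voom called none of the 40, against 8 higher and 11 lower of all genes with DESeq2 and 0 and 0 with limma-voom. The median log2 fold change was 0.28, against 0.01 over all genes, with 37 of 40 positive. Stat2, Irf9, Rtp4 and Ifih1 were higher in all 3 Tom+ than in all 3 Tom- libraries (10% of the 40, against 6.11% of all genes). Rtp4 overlaps Masp1 on the opposite strand, with mean counts of 716 for Rtp4 and 7371.5 for Masp1. It also overlaps Gm45338 on the same strand, and reads of these overlaps cannot be told apart. The reporter bears on this comparison directly. In pair 1, where the reporter was high in both libraries, 36 of the 40 were higher in Tom+ (median 0.52), and in pair 2, where it was low in both, 38 were (median 0.47). In pair 3, where the reporter followed both labels, 14 were higher and 26 lower (median -0.06). Without the 2 doubted libraries the median was 0.19 and 29 of 40 were positive. It was 0.12 without Tom- oil 1 or Tom- oil 2, 0.63 without Tom- oil 3 and 0.14 without Tom+ oil 3.

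For the difference between these comparisons, CCl4 minus oil, 0 of the 40 genes were called higher and 1, Stat2, was lower, against 0.216% and 0.958% of all genes tested. At an unadjusted p under 0.05, 0 of the 40 were higher and 6 lower, against 3178 of all 17121 genes tested in either direction. DESeq2 and limma-voom each called 0 higher and 1 lower. Over all genes DESeq2 called 110 higher and 475 lower, and limma-voom called 37 and 123. In the fit blocked by replicate, 3 were called lower, against 4.19% of all genes. These were Stat2 (-1.30 ± 0.17, edgeR adjusted p = 0.00118), Rtp4, a chaperone of membrane receptors (-0.86 ± 0.19, 0.0123), and Ifi44 (-0.89 ± 0.23, 0.0213). The value of Rtp4 may include reads of the more abundant Masp1, which overlaps it on the opposite strand. Irf9, Irf1, H2-K1 and H2-D1 had an edgeR adjusted p under 0.05 with the block, between 0.00733 and 0.0440, at sizes under the threshold. The median of the 40 was -0.28 with 35 negative, and it was -0.16 with 30 negative without the 2 doubted libraries. It was -0.12, -0.07 and -0.62 without Tom- oil 1, 2 or 3, and -0.16 without Tom+ oil 3. Among CCl4 libraries it was -0.07 without Tom- CCl4 1, -0.48 without Tom- CCl4 2, -0.53 without Tom+ CCl4 1 and -0.06 without Tom+ CCl4 2, and it was negative in each of these fits.

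The level of most of these genes went with the replicate number. In CCl4, number 2 was the lowest of 3 in both fractions for 35 of the 40 genes (87.5%), against 11.4% of all genes tested, and number 1 was the highest in both for 24 (60%), against 15.7%. In oil, number 3 was the highest in both fractions for 24 of the 40 (60%), against 16.8%. These positions were picked after the values were seen and are given as a description. The median of the 40 genes lay below its group mean by a log2 value of -0.38 in Tom- CCl4 2 and -0.40 in Tom+ CCl4 2, and 0.41 above it in Tom- oil 3, while the median over all genes stayed between -0.0136 and 0.0106 in the 12 libraries. Irf7 shows the pattern: it measured 124, 51.8 and 105 CPM in Tom- CCl4 and 112, 46.8 and 94.8 CPM in Tom+ CCl4. Xaf1, a pro-apoptotic protein, measured 14.5, 3.57 and 5.83 CPM in Tom- CCl4 and 12.7, 3.01 and 4.91 CPM in Tom+ CCl4. In both genes number 2 was lowest in each fraction and the fractions followed each other closely.

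**Figure D5:**
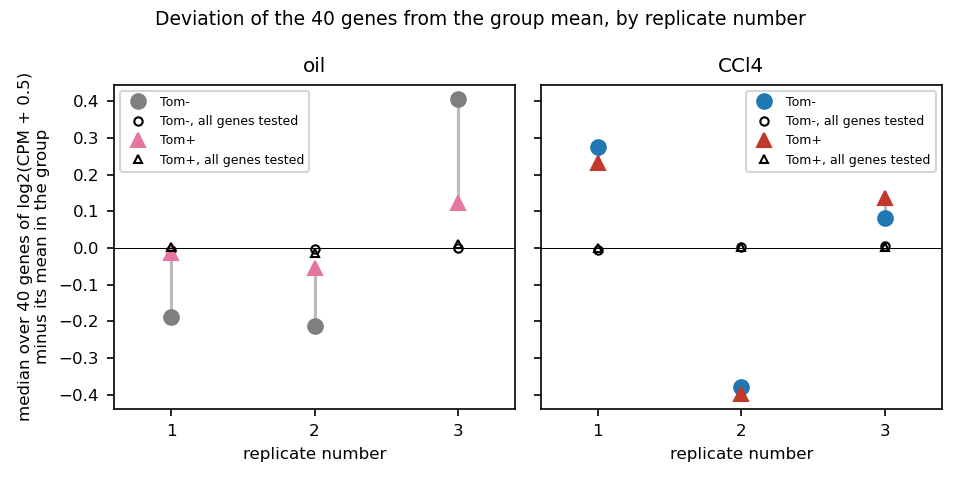
Median over the 40 genes of log2(CPM + 0.5) minus the mean of the group, for each replicate number in oil and in CCl4; filled circles are Tom-, filled triangles Tom+, and open symbols give the median over all genes tested. Number 2 lies at -0.38 and -0.40 in CCl4, and number 3 of Tom- oil lies at 0.41.

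Markers of other cell types also differed by number in oil. The summed level of 7 Kupffer cell and macrophage markers was 76.8 CPM in Tom- oil 3 and 121 CPM in Tom+ oil 3, against 15.2 to 28.5 CPM in the other 4 oil libraries. In CCl4 it was 99.4, 99.5 and 129 CPM in Tom- and 60.6, 59.0 and 177 CPM in Tom+ cells for numbers 1, 2 and 3, so that number 2 was close to number 1. None of the 7 was at 0 in any library. The 8 leukocyte markers summed to 5.33 and 5.12 CPM in Tom- oil 3 and Tom+ oil 3, against 0.601 to 1.44 CPM in the other oil libraries, with Cd3e, Cd8a, Nkg7, Klrb1c, Cd79a and Itgax at 0 in at least 1 library. The stellate sum was 14.9 and 20.4 CPM, against 6.55 to 11.5 CPM, and the endothelial sum was highest within each fraction, at 150 and 185 CPM. The part of these cells in the result was not tested.

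The rest of the pathway was read from lists of genes outside the 40. Of 7 interferon genes (4 type I, Ifng and 2 type III) none passed the filter on low counts, and the highest value was 1 count, of Ifng, in 1 library. A count of 0 allows up to 3 counts, or 0.0398 to 0.0799 CPM depending on the library, for counting error only. Of 22 tested genes for receptors, kinases, inhibitors and sensing, 3 were called higher in CCl4 in Tom- cells by edgeR and 0 lower, against 6.33% and 1.59% of all genes: Ifngr1, a type II receptor chain (log2 fold change 0.79, edgeR adjusted p = 0.00382), Il10rb, which serves type III interferon (0.99, 0.00934), and Socs3, a feedback inhibitor of cytokine receptors (1.69, 0.0331). None of the 22 was called by edgeR without a block in the other comparisons. Without the 2 doubted oil libraries Il10rb alone was called in Tom- cells. The type I receptor chain gene Ifnar1 measured 28.5 to 43.8 CPM over all 12 libraries.

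Of 54 other interferon-stimulated genes, 7 were called higher in CCl4 in Tom- cells by edgeR and 0 lower, against the same 6.33% and 1.59%, with a median of 0.17. The 4 with the smallest adjusted p were Ifi204 (1.62, 0.0146), Slfn5 (1.51, 0.0161), Mx2 (0.80, 0.0173) and Ifi27l2b (0.97, 0.0235, log2 fold change and edgeR adjusted p). In Tom+ cells 1 was higher, Ifi27l2b (1.28, 0.0101), and 1 lower, Gbp11 (-1.82, 0.0315), against 2.90% and 2.34%, with a median of -0.16. Without the 2 doubted oil libraries 2 were higher in Tom- cells, Ifi204 and Sp100, and Ifi27l2b alone was called in Tom+ cells. For Tom+ against Tom-, none of the 54 was called without the block. With it, 6 were lower in CCl4, against 3.25% of all genes, and 9 were lower for the difference, against 4.19%. The smallest adjusted p in CCl4 were those of Slfn5 (-0.82, 0.00262) and the chemokine Cxcl11 (-0.93, 0.00796).

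Of 22 other class I presentation genes, edgeR called 0 for CCl4 against oil in Tom- cells and 3 lower in Tom+ cells, against 2.34% of all genes: Tap2, the partner of TAP1 (-0.76, 0.0124), Calr, a chaperone of the loading complex (-0.78, 0.0144), and the nonclassical class I gene H2-T23 (-0.83, 0.000474). H2-T23 measured 284, 326 and 327 CPM in Tom+ oil and 178, 160 and 190 CPM in Tom+ CCl4, with no overlap, and it was the single gene of these 22 called without the 2 doubted oil libraries. For Tom+ against Tom-, 0 of the 22 were called without the block and 1 with it, H2-T24, in CCl4 (-0.94, 0.0280) and for the difference (-1.68, 0.0128). Of 7 class II presentation genes none was called by edgeR without the block. With it, H2-DMa, which helps load class II peptides, was lower in Tom+ than in Tom- cells of CCl4 livers (-1.51, 0.0316) and for the difference (-2.13, 0.0475). The class II chaperone Cd74 measured 34.0 and 27.8 CPM in Tom- oil 3 and Tom+ oil 3, against 1.16 to 8.32 CPM in the other oil libraries, and was thereby highest in the libraries with the highest macrophage markers of the oil groups.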

How the data were processed

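Tom- and Tom+ hepatocytes were sorted by FACS after dead cells had been removed with DAPI, RNA was enriched by polyA, and strand-specific libraries were sequenced. Per the labels and the methods, the tools of the authors were fastp (v0.23.2), HISAT2 (v2.1.0) on the mm10 genome, and DESeq2 (v1.42.1). The counting program, its strand setting and the annotation release are not given in the sources used here. The authors deposited expected counts per feature, not normalized, of which 30.4% to 32.9% of non-zero values were not whole, so they were rounded, although whole counts had been assumed. Each sample's group and replicate number were taken from its title. Identifiers were matched to symbols for 99.8% of features.

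The 40 genes, all gene lists and the thresholds were chosen with earlier results of these data known. Values in every library are given for genes called in any comparison, at most the 12 with the smallest adjusted p, and for the 3 most abundant per kilobase. Irf9, Irf7, Xaf1, Gbp2, Ifih1, H2-T23, Cd74 and Ifnar1 were added after their values were seen. TMM, filterByExpr and the quasi-likelihood test of edgeR (v4.0.16, in R v4.3.3) were applied in 1 fit of 12 libraries with a coefficient per group. A gene was called at an adjusted p under 0.05 and a log2 fold change beyond 0.75. The SE is the log2 fold change divided by the root of the F statistic. Functions were tested on simulated data. Alternatives were RLE and upper-quartile scaling, omitting the low-count filter or requiring 10 counts in each library, DESeq2 (v1.42.0), limma-voom (v3.58.1), a replicate block, 6 libraries in the fit, an average over fractions, no size threshold, and leaving out each library and both doubted oil libraries.

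Deviations from group means correlated between same-numbered Tom- and Tom+ libraries in every pair (0.428 to 0.638 in CCl4 and 0.374 to 0.473 in oil), so the numbers were taken as pairs there, from the data. Between oil and CCl4 they did not in every pair (from 0.0274). No label states that libraries are separate mice, and p-values measure the spread between these libraries. No 2 libraries of a group agreed within sampling noise. Columns of comparisons made by the authors were not in the table, and all sample columns were used.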

Additional observations from a re-analysis of the deposited data

Results flagged for a closer look

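Stat2 drew attention because its Tom+ against Tom- change differed between CCl4 and oil by a test of the difference itself: the log2 difference was -1.29 ± 0.17 (edgeR adjusted p = 0.00738). In all 3 CCl4 pairs the Tom+ library was the lower one, and in all 3 oil pairs it was the higher one. In pair 3, where the reporter followed both labels in oil, Stat2 measured 68.3 CPM in Tom- and 72.8 CPM in Tom+ cells. In the fit blocked by replicate the difference was -1.30 (edgeR adjusted p = 0.00118).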

How the results depend on the processing

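Stat2 kept its calls in Tom- cells, in CCl4 and for the difference under all alternatives run, and no gene of the 40 had an adjusted p under 0.05 with the opposite direction under any of them. The other counts of called genes were small and moved with the processing, and the cause was not tested beyond the fewer libraries in some fits. For CCl4 against oil in Tom- cells (3 higher, 1 lower), the replicate block gave 6 and 2 (adding Ifit2, Oasl2 and Ifi44 higher and Psmb8 lower), DESeq2 4 higher, limma-voom 0 lower, no size threshold 2 lower, and the fit without both doubted oil libraries 0 lower. In Tom+ cells (0 higher, 2 lower), the block, DESeq2 and limma-voom each gave 1 higher, DESeq2 and no size threshold each gave 3 lower, no filter gave 1 lower, and the fit without both doubted libraries 0 lower. With the fractions summed (1 and 1), the block gave 3 higher, DESeq2, limma-voom and the average over fractions each gave 2 higher and 2 lower, no size threshold gave 2 and 3, and the fit without both doubted libraries gave 0 and 0. For the difference of Tom+ against Tom- the block gave 3 lower. Leaving out each library in turn gave 1 to 6 higher and 0 to 2 lower in Tom- cells, 0 to 1 higher and 0 to 3 lower in Tom+ cells, 0 to 2 higher and 0 to 2 lower with the fractions summed, and 1 to 2 lower for the difference. Outside the 40, the block raised calls for CCl4 against oil among the 54 other interferon-stimulated genes from 7 to 12 higher in Tom- cells, gave 3 higher and 2 lower in Tom+ cells and 9 higher and 2 lower with the fractions summed, and called Socs3 higher in Tom+ cells and Tlr7 in Tom- cells and the sum. The block altered no call of the 40 for Tom+ against Tom- within CCl4 or oil. Among all 17121 genes tested, calls for CCl4 against oil rose too. In Tom- cells 1083 higher and 273 lower became 1366 and 328 with the block and 1336 and 326 with DESeq2. In Tom+ cells 497 and 400 became 645 and 474 with the block and 649 and 493 with DESeq2. With the fractions summed, 592 and 256 of 17743 genes became 825 and 310 with the block. The totals with limma-voom were 1071 higher and 242 lower in Tom- cells, and 636 and 273 with the fractions summed. Over all genes, calls of Tom+ against Tom- in CCl4 (38 higher, 298 lower) became 62 and 484 with DESeq2 and 126 and 556 with the block, those in oil (0 and 0) became 8 and 11 and 11 and 29, those of the difference (37 and 164) became 110 and 475 and 220 and 718, and DESeq2 gave 913 higher against 592 with the fractions summed. With the fractions summed, 848 genes were called in all, 1444 with the average over fractions and 488 without both doubted libraries. Without Tom- CCl4 2 or Tom+ CCl4 2, 77 and 92 genes in place of 336 were called for Tom+ against Tom- in CCl4, and 44 and 42 in place of 201 for the difference. Between oil and CCl4 the same number was only a label: correlations of same-numbered libraries began at 0.0274, and not every library correlated best with its own number. Genes below 0.0799 CPM, the level of 3 counts in the shallowest library, are not resolved here. Oas2 was at 0 and 0.116 CPM in Tom- oil 1 and Tom- oil 2, and reached 0.808 CPM in Tom+ oil 3.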
